A study of Mus musculus with 4 samples.

Results

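Zfhx4 encodes a very large transcription factor that combines many zinc fingers with several homeodomains. Its transcript carried more CLIP-seq peaks of the splicing factors SRSF1 and SRSF2 than all but 1 of the genes that could be named in mouse embryonic fibroblasts. The gene's peaks are those whose deposited name holds the RefSeq transcript NM_030708, the only RefSeq unit of Zfhx4 in either list. They number 68 for SRSF1 and 76 for SRSF2, 144 of 107319 peaks in all. Zfhx4 was chosen by its number of peaks in these same lists, where it ranked 2 of 2155 named genes for each protein, so its counts are given as a description. What is described beyond them is where along the gene the peaks lie, how they are scored, and how often those of the 2 proteins coincide.

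SR proteins such as SRSF1 and SRSF2 bind RNA through their RNA recognition motifs and, through a domain rich in arginine and serine, take part in recruiting the spliceosome to exons. Zfhx4 belongs to a small family with Zfhx2 and Zfhx3. It is known mainly from the developing nervous system and skeletal muscle. Its protein is one of the longest among transcription factors, and its gene is long as well.

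The 2 libraries used here came from tetracycline-repressible embryonic fibroblast lines, one for SRSF1 and one for SRSF2, both grown without tetracycline. The tagged protein was pulled down after ultraviolet crosslinking with an antibody against the HA tag, and the RNA bound to it was sequenced. Each protein was measured in its own line and in 1 library, so protein, line and library cannot be told apart and no value below has a replicate error. The siRNA-treated samples, 2 SRSF1 libraries with control or SRSF2 siRNA, are not analysed here. Read depth is unknown. Intervals are exact (Clopper-Pearson) 95% binomial intervals and cover counting error only. Peaks that lie side by side can come from the same RNA fragments, so these intervals are too narrow. Of 17 fibroblast marker genes, 4 had a named peak (Col1a1, Col6a1, Postn and Thbs1, with 115 SRSF1 and 88 SRSF2 peaks together). Of 8 neuronal, 8 skeletal muscle, 4 macrophage and 4 endothelial markers none had one, and of 5 epithelial markers Krt19 had a single SRSF1 peak. Of all protein-coding genes 9.75% had a named peak, so the absence of one from lists this short says little. Most peaks carry no gene name, so a marker without a named peak may still have been bound.

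The peaks lay on the plus strand of chromosome 3 (mm9, the build of the deposited coordinates), from 5218835 to 5415498, a span of 196.7 kb. Every peak listed on that strand within the span bore the Zfhx4 name. Positions below are distances from 5218835 in the direction of transcription. The nearest listed plus-strand peaks outside were both of SRSF2 and in regions the authors called nongenic. They lay 7435 nt before the first Zfhx4 peak, with a score of 4, and 2289 nt after the last, with a score of 5. The score is the authors' own number for each peak, and its meaning was not given in the sources used here. Listed peaks just inside these ends scored 20 (SRSF1) and 22 (SRSF2) at the 5′ end and 7 (SRSF1) and 9 (SRSF2) at the 3′ end. An mm9 annotation or genome was not used here, so no peak is assigned to an exon, an intron or an untranslated region.

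SRSF1 contributed 47.2% of the gene's peaks (interval 38.9 to 55.7). The share over all gene-named peaks was also 47.2% (46.4 to 47.9), and that of chromosome 3 as a whole was 48.5% (47.2 to 49.8). The balance of the proteins on Zfhx4 was close to that of named genes in general, whose value lies inside the gene's interval. The lowest score listed for this gene was 6 for SRSF1 and 7 for SRSF2. It was reached by 21 SRSF1 and 25 SRSF2 peaks. When peaks under a score of 7 were left out of both lists, 47 SRSF1 and 76 SRSF2 peaks remained, a share of 38.2%. On this gene that cut could remove SRSF1 peaks only. The share at this cut was not set beside that of all gene-named peaks.

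**Figure D1:**
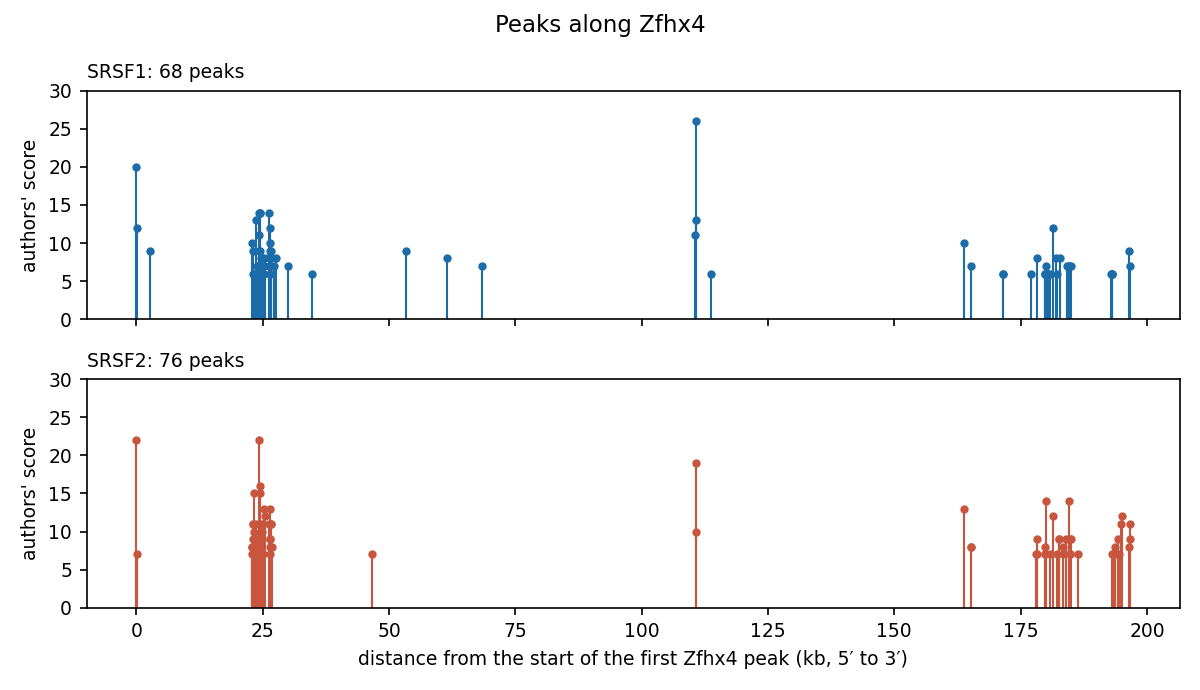
Position of each Zfhx4 peak along the span (horizontal, kb from the start of the first peak) against the authors' score (vertical), with SRSF1 above and SRSF2 below and 1 stem per peak. Both proteins crowd between 22.9 and 27.6 kb and again from 178.1 kb to the 3′ end, and the interior holds few peaks, among them the highest SRSF1 score of 26 at 110.7 kb.

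The peaks were far from evenly spread. When the span was divided into 10 equal parts of 19.7 kb, the second part had 31 SRSF1 peaks (45.6%, 33.5 to 58.1) and 35 SRSF2 peaks (46.1%, 34.5 to 57.9). The last part had 22 SRSF1 peaks (32.4%, 21.5 to 44.8) and 33 SRSF2 peaks (43.4%, 32.1 to 55.3). These 2 parts together accounted for 84.0% of the gene's peaks, and the fifth, seventh and eighth parts had none of either protein. For both proteins the same parts were full and the same parts empty, except the fourth part, with 2 SRSF1 peaks and no SRSF2 peak. The largest stretches without a listed peak ran from 113.7 to 163.7 kb (50.1 kb), from 68.5 to 110.6 kb (42.2 kb) and from 2.83 to 22.9 kb (20.1 kb). Peaks of either protein covered 2221 nt, which is 1.13% of the span.

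**Figure D2:**
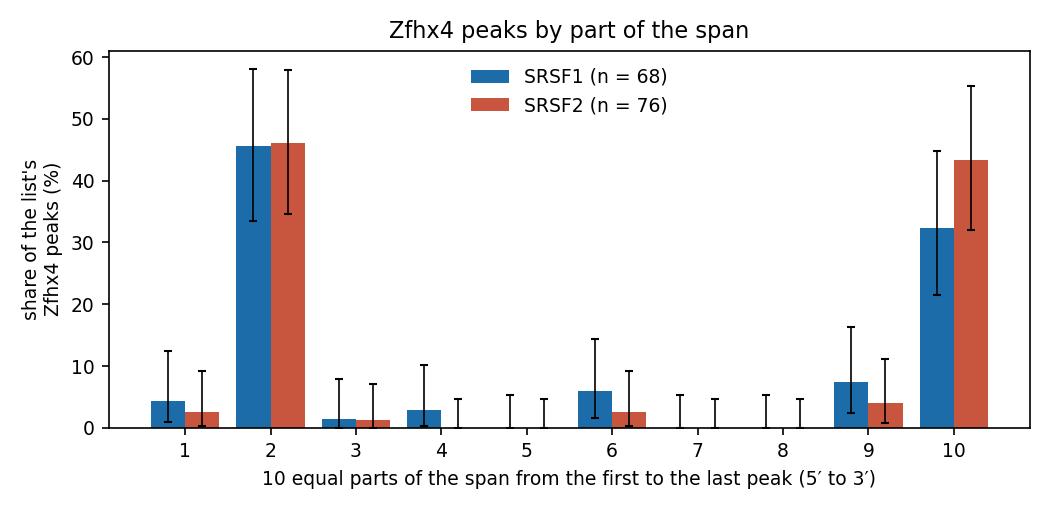
Share of each list's Zfhx4 peaks (vertical, percent) in each of the 10 equal parts of the span (horizontal, 5′ to 3′), SRSF1 in blue and SRSF2 in red, with exact 95% binomial intervals as error bars. The second part holds 45.6% and 46.1% and the last 32.4% and 43.4%, while parts 5, 7 and 8 are empty.

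Dense stretches were defined as runs of at least 5 peaks of either protein with no more than 500 nt between one peak and the next. Zfhx4 had 8 of them. Together they took up 8353 nt, 4.25% of the span, and held 113 of the 144 peaks (78.5%, 70.9 to 84.9), with 53 of the 68 SRSF1 peaks (77.9%) and 60 of the 76 SRSF2 peaks (78.9%). SRSF1 made up 46.9% of the peaks inside them (37.5 to 56.5) and 48.4% of the 31 outside (30.2 to 66.9), and these intervals overlap.

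The longest and fullest stretch lay near the 5′ end, from 5241717 to 5244291, that is 22.9 to 25.5 kb from the first peak. Its 2575 nt held 18 SRSF1 and 26 SRSF2 peaks, 17.1 peaks per kb. SRSF1 scores there ran from 6 to 14 with a median of 8.5, and SRSF2 scores from 7 to 22 with a median of 9. Of these peaks 10 of each protein met a peak of the other. The next stretch followed after a short break, from 5245154 to 5246408, and held 11 SRSF1 and 9 SRSF2 peaks in 1255 nt. There 5 peaks of each protein overlapped, and the 3′ end of the stretch was occupied by SRSF1. The SRSF1 share was 40.9% (26.3 to 56.8) in the first of these stretches and 55.0% (31.5 to 76.9) in the second, and the intervals overlap widely. By order of start, SRSF2 peaks in the first stretch came in a series of 4 at 23.2 to 23.3 kb (scores 9 to 15). Another series of 4 lay at 24.8 to 24.9 kb (scores 7 to 11), and its first peak overlapped an SRSF1 peak by 10 nt. Many peaks of 1 list nearly touched: the gap to the next peak of the same list was as small as 1 nt in both lists, with a median of 196 nt for SRSF1 and 73 nt for SRSF2.

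**Figure D3:**
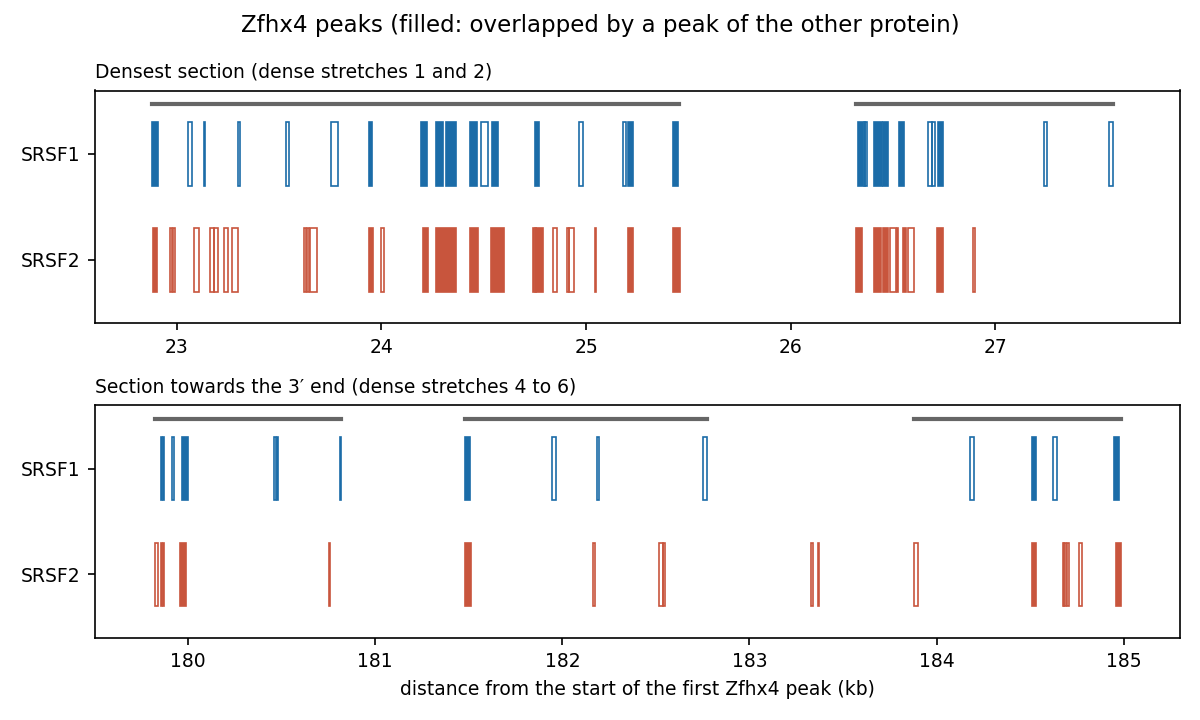
Individual Zfhx4 peaks drawn to scale along the gene (horizontal, kb from the start of the first peak) for the 2 dense stretches near the 5′ end (top) and 3 of those towards the 3′ end (bottom). Filled boxes overlap a peak of the other protein, open boxes do not, and grey bars mark the dense stretches; the upper section packs 44 and 20 peaks into its 2 stretches, and the lower 12, 8 and 11 into its 3.

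A small stretch stood alone in the middle of the span, with no other peak for 42.2 kb before it. It ran from 5329481 to 5329671 (191 nt, 110.6 to 110.8 kb) and held 3 SRSF1 and 2 SRSF2 peaks, the latter both overlapped. The SRSF1 peak at 5329533 to 5329562 had a score of 26, the highest of that protein on the gene, and 98.2% of all SRSF1 peaks in the list scored lower. The SRSF2 peak at 5329532 to 5329566 scored 19, above 93.6% of the SRSF2 list. The midpoints of these 2 peaks lay 1.5 nt apart. The neighbouring pair, 5329637 to 5329671 for SRSF1 and 5329640 to 5329670 for SRSF2, scored 13 and 10, with midpoints 1 nt apart. The lowest scores in this stretch, 11 for SRSF1 and 10 for SRSF2, were well above the lowest on the gene.

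The other 5 stretches lay from 179.8 kb to the 3′ end, where SRSF1 scores seldom reached 10. They ran from 5398659 to 5399651 (7 SRSF1 and 5 SRSF2 peaks), from 5400312 to 5401607 (4 of each), from 5402712 to 5403820 (4 and 7), from 5411690 to 5412438 (4 of each) and from 5415314 to 5415498 (2 and 3). The fourth of these had no overlap between the proteins, and all 4 of its SRSF1 peaks scored 6, the lowest value on the gene. In the last, both SRSF1 peaks were overlapped. Median scores were lowest in the first and the fourth of these 5, at 6 for SRSF1 and 7 for SRSF2 in each. In the others they were 8, 7 and 8 for SRSF1 and 9 in each for SRSF2, which is also the SRSF2 median of both stretches near the 5′ end. In the last of the 10 parts as a whole the median score was 6.5 for SRSF1 and 8 for SRSF2, against 8 and 9 in the second part. Only 1 of its 22 SRSF1 peaks reached a score of 10, against 9 of 31 in the second part, and 6 of its 33 SRSF2 peaks did so, against 16 of 35. With only the peaks at or above the list median score of 8, the last part had 5 of 33 for SRSF1 (15.2%) and 18 of 51 for SRSF2 (35.3%).

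Some sections were occupied by 1 protein. The longest series without a peak of the other was of SRSF2, 7 peaks from 193.2 to 195.1 kb with scores of 7 to 12, towards the 3′ end. SRSF1 had 4 peaks in a row from 27.2 to 34.7 kb (scores 6 to 8) and 4 from 53.3 to 110.7 kb (scores 7 to 11), with a single SRSF2 peak of score 7 between them at 46.7 kb. Outside the second and the last of the 10 parts SRSF1 had 15 peaks and SRSF2 8, an SRSF1 share of 65.2% (42.7 to 83.6), whose interval includes the 47.2% of the whole gene. In the last part the share was 40% (27.0 to 54.1), again with the whole gene's value inside the interval. The lists leave out some numbered peaks, so a partner may exist that is not listed.

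Of the 68 SRSF1 peaks, 28 were overlapped by an SRSF2 peak by at least 1 nt (41.2%, 29.4 to 53.8). Of the 76 SRSF2 peaks, 28 were overlapped by an SRSF1 peak (36.8%, 26.1 to 48.7). Over all gene-named peaks these shares were 37.2% and 33.5%, inside the intervals for Zfhx4. Inside the dense stretches the shares were 47.2% (33.3 to 61.4) and 41.7% (29.1 to 55.1). Outside them they were 20% (3 of 15, 4.33 to 48.1) and 18.8% (3 of 16, 4.05 to 45.6). The intervals inside and outside overlap for both proteins. Dense stretches count peaks of both lists together, so overlapping peaks help to form them. A higher overlap share inside is therefore partly fixed by definition. Of the nucleotides covered, 631 were common to both proteins, which is 46.9% of the 1345 nt under SRSF1 peaks and 41.9% of the 1507 nt under SRSF2 peaks.

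Where the proteins met, their midpoints were close. The overlap rule and the short peaks limit how far apart midpoints can lie, so this closeness is partly fixed by definition. The overlaps formed 29 pairs, with a median of 22 nt shared and a median of 3 nt between midpoints, and in 23 of them the midpoints were at most 10 nt apart. The furthest midpoints, 30.5 nt, belonged to a wide SRSF2 peak at 5243102 to 5243198 (97 nt, score 22) that spanned 2 separate SRSF1 peaks with scores of 9 and 14. In 2 pairs both ends were identical. These were short peaks next to each other, 5398687 to 5398694 and 5398700 to 5398706, with scores of 6 (SRSF1) and 7 (SRSF2) in the former and 6 and 8 in the latter.

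Distances to the nearest peak of the other protein were taken over all peaks of the gene, overlapped ones included. Overlapping pairs had midpoints at most 30.5 nt apart, which lowers the medians and raises the shares below. The median distance between midpoints was 30.8 nt from an SRSF1 peak to the nearest SRSF2 peak of the gene and 46.8 nt in the other direction. An SRSF2 midpoint lay within 50 nt of 58.8% of the SRSF1 peaks and within 500 nt of 83.8%, and for SRSF2 peaks the shares were 52.6% and 88.2%. SRSF1 peaks without an overlap lay a median of 83.3 nt (lower quartile 46.9 nt) from the nearest SRSF2 peak. SRSF2 peaks without one lay a median of 75.8 nt (lower quartile 52 nt) from the nearest SRSF1 peak. The most isolated SRSF1 peak was 21804 nt from any SRSF2 peak, and the most isolated SRSF2 peak 6706 nt from any SRSF1 peak. The medians depend on how peaks are counted: they were 59.5 nt in both directions after peaks of 1 list within 50 nt of each other had been merged, and 20.5 nt and 90 nt among peaks at or above a score of 8.

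Among the Zfhx4 peaks, high-scoring ones were shared more often than low-scoring ones. These shares were not set beside those of all gene-named peaks, so the difference is not shown to be particular to this gene. Of the SRSF1 peaks with a score of at least 10, 13 of 16 were overlapped (81.3%, 54.4 to 96.0), against 2 of 21 at the lowest score of 6 (9.52%, 1.17 to 30.4). Of the SRSF2 peaks, 17 of 26 with a score of at least 10 were overlapped (65.4%, 44.3 to 82.8), against 4 of 25 at the lowest score of 7 (16%, 4.54 to 36.1). The intervals of the high and low classes do not overlap in either list. They are too narrow where neighbouring peaks come from the same RNA fragments, and no test between the classes was run. Width moved with overlap. Overlapped SRSF1 peaks had a median width of 25 nt against 15.5 nt for the others, and SRSF2 peaks 27 nt against 11.5 nt. The part of width in the difference was not tested.

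Most of the gene's highest scores in each list fell on common sites, again without a comparison over all gene-named peaks. The 6 best SRSF1 peaks had scores of 26 (at 110.7 kb), 20 (at the first position) and 14 (at 24.3, 24.5, 24.5 and 26.3 kb), and 5 of them were overlapped. Of the 6 best SRSF2 peaks, 2 scored 22 (at the first position and at 24.3 kb), 1 scored 19 (at 110.7 kb), 1 scored 16 (at 24.5 kb) and 2 scored 15 (at 23.3 and 24.6 kb). The SRSF2 peak at 23.3 kb, 5242107 to 5242132, was the only one of these 6 without an SRSF1 peak on it. In 4 pairs both peaks were in the upper 10% of the gene's scores in their list. They lay at 5218835 to 5218869 (SRSF1 score 20, SRSF2 score 22), at 5243151 to 5243199 (14 and 22), at 5243270 to 5243303 (14 and 16) and at 5329533 to 5329562 (26 and 19), all given by the SRSF1 ends. Across the 29 pairs Spearman's rho between the SRSF1 and SRSF2 scores was 0.33, given as a description, since pairs share neighbouring RNA and 2 of the 29 share an SRSF2 peak and 2 an SRSF1 peak.

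**Figure D4:**
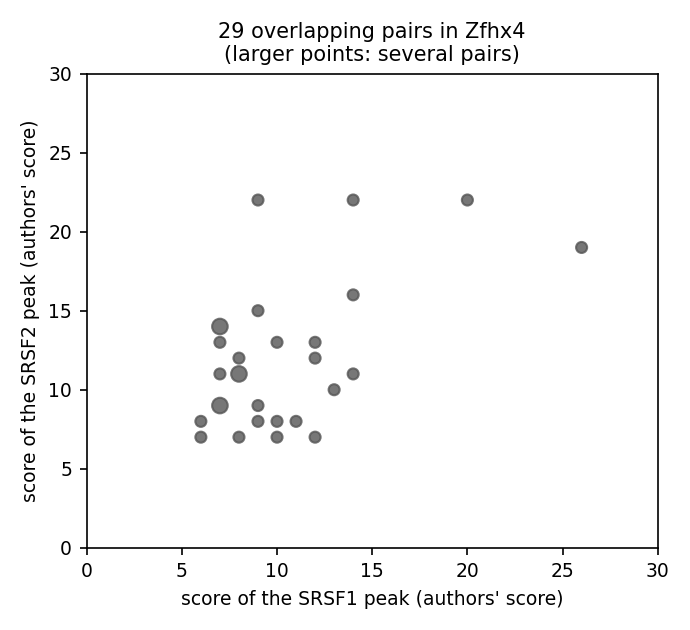
Score of the SRSF1 peak (horizontal) against that of the SRSF2 peak (vertical), both the authors' scores, for the 29 overlapping pairs of Zfhx4; larger points stand for several pairs with the same scores. Overlapped peaks had median scores of 9 for SRSF1 and 11 for SRSF2. The pairs with 20 and 22 and with 26 and 19 stand apart by their SRSF1 scores. An SRSF2 score of 22 also occurs with SRSF1 scores of 9 and 14.

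The first listed peaks of both proteins coincide at the 5′ end. The SRSF1 peak at 5218835 to 5218869 and the SRSF2 peak at 5218844 to 5218869 end on the same nucleotide and scored 20 and 22, above 95.9% and 96.0% of their lists. A pair with scores of 12 (SRSF1, 5218888 to 5218922) and 7 (SRSF2, 5218903 to 5218919) followed directly. After it came a single SRSF1 peak with a score of 9 at 2.82 kb, and then nothing until 22.9 kb. Away from the dense stretches, 1 more site was shared, at 163.7 kb (SRSF1 5382569 to 5382594, score 10; SRSF2 5382568 to 5382594, score 13).

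The scores and widths of the gene's peaks were otherwise ordinary. SRSF1 scores on Zfhx4 ran from 6 to 26 with a median of 7, the median of all gene-named SRSF1 peaks. SRSF2 scores ran from 7 to 22 with a median of 9, where that of all gene-named SRSF2 peaks was 8. The lowest score listed per transcript differed between transcripts, and a lower one than that of Zfhx4 was found for 41.4% of the named transcripts with SRSF1 peaks and for 49.5% of those with SRSF2 peaks. Median widths were 19 nt for SRSF1 and 17 nt for SRSF2, against 19 nt over gene-named peaks of either list.

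Zfhx4 was set beside the other 214 named genes with at least 20 peaks, as a description. Its span was longer than that of all but 9 of them, with a median of 39.4 kb. With 7.32 peaks per 10 kb it was below the median of 8.37 over all 214. Its share of peaks in dense stretches, 78.5%, was exceeded by 16 of the 214, whose median was 38.6%. The share in its 2 fullest of 10 parts, 84.0%, was exceeded by 8, with a median of 51.3%. Its 3 empty parts equalled the median of these genes, and its largest gap, 25.5% of the span, was below their median of 30.6%. Dynein heavy chain gene Dync1h1 alone had more dense stretches, 14. A gene with many peaks forms stretches more easily, and the genes were not matched on peak number. Among the 32 other genes whose peaks spanned at least 100 kb, a limit chosen after the values were seen, the share in dense stretches ran from 0 to 75.4% with a median of 25%, and 7 had no stretch. Their peaks per 10 kb ran from 0.489 to 7.23 with a median of 1.99, all below the 7.32 of Zfhx4. This measure rests on the peak number by which Zfhx4 was chosen. Its place above these genes is therefore partly set by that choice. The overlap shares of Zfhx4 were below the medians of these 214 genes, 50% for SRSF1 peaks and 41.2% for SRSF2 peaks, and inside their 10th to 90th percentiles (25.5 to 74.3% and 21.7 to 66.7%).

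The 5 genes with peak numbers most like those of Zfhx4 were found by the distance between log2 peak numbers over the 2 libraries. The nearest was Col1a1, a chain of type I collagen, with 55 SRSF1 and 52 SRSF2 peaks (distance 0.63). Dync1h1 had 76 and 116 peaks (0.63), Flna, the actin crosslinker filamin A, 45 and 51 (0.83), Med13, a Mediator subunit, 44 and 40 (1.12), and Smc5, an ATPase of genome maintenance, 46 and 36 (1.22). All had shorter spans, from 15.6 kb for Col1a1 to 87.2 kb for Med13, and at most 1 empty part, where Zfhx4 had 3. Their 2 fullest of 10 parts held 34.4% (Dync1h1) to 46.9% (Flna) of the peaks, against 84.0% on Zfhx4. Dense stretches held 91.6% of the peaks of Col1a1 and 85.4% of those of Flna, more than the 78.5% of Zfhx4, and 69.8% on Dync1h1, 50% on Med13 and 48.8% on Smc5. The overlapped share of SRSF1 peaks, not tested between genes, was 72.7% on Col1a1, 68.9% on Flna, 67.1% on Dync1h1, 56.5% on Smc5 and 40.9% on Med13, against 41.2% on Zfhx4.

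**Figure D5:**
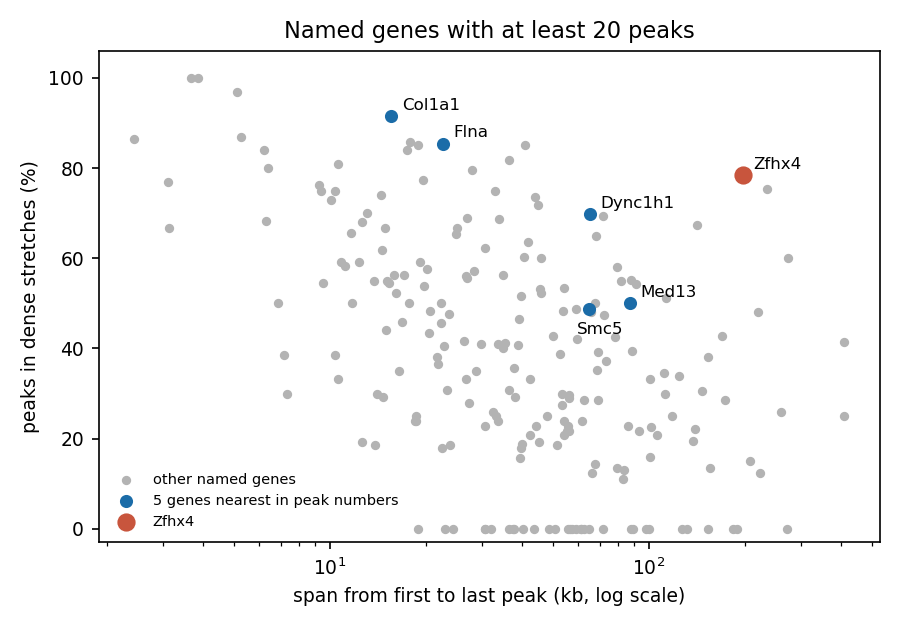
Share of peaks in dense stretches (vertical, percent) against the span from first to last peak (horizontal, kb, log scale) for the 215 named genes with at least 20 peaks of both proteins together. Zfhx4 (red) combines a span of 196.7 kb with 78.5% of peaks in dense stretches; the 5 genes nearest in peak numbers (blue) have spans of 15.6 to 87.2 kb and shares of 48.8% to 91.6%.

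Of 14 genes for zinc finger homeobox proteins and their relatives, 4 had a named peak of either protein, where 9.75% of the 21900 protein-coding genes of the reference table had one. With SRSF1 alone the count was 3 (background 8.17%) and with SRSF2 4 (background 8.05%). Zfhx4 is itself among them and was chosen by its peaks. Zfhx3, a close relative known from neurons and the circadian clock, had 14 SRSF1 and 21 SRSF2 peaks over 169.3 kb of the plus strand (chromosome 8, 111316149 to 111485447). Only 3 of each were overlapped, 2 dense stretches held 15 of the 35 peaks (42.9%), and the highest scores were 9 for SRSF1 and 10 for SRSF2. Tshz3, a teashirt zinc finger factor, had 5 SRSF2 peaks with scores of 4 to 5 and no SRSF1 peak. Adnp2 had 2 peaks of each protein, with none overlapped. The other members, Zfhx2, Zeb1, Zeb2, Adnp, Tshz1, Tshz2, Zhx1, Zhx2, Zhx3 and Homez, had no peak under their own name, which does not show that they were unbound.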

How the data were processed

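Each of the 2 deposited lists, 1 per protein, gives a peak's chromosome, start, end, name, score and strand, on mm9 per the submitters' processing notes. The authors' score is whole and at least 4 for each peak. What it measures was not given in the sources used here, nor were the aligner, the peak caller and the threshold. Scores were ranked within a list; pairs are described by both scores, and 1 alternative set the same lowest score in both lists. Starts were converted to 1-based positions. Host transcripts were named through a RefSeq table of GRCm38.p6, used for names only (2155 of 2169 accessions matched). Overlap meant at least 1 nt on the same strand, and counts were checked against bedtools 2.31.1 and tested on simulated data with Python 3.11.15 and scipy 1.17.1. With 1 library per protein no test between proteins was run.

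Peaks, pairs and stretches to name followed a rule: the 5 highest scores per list with ties, every dense stretch, pairs in the upper 10% of both lists, the zinc finger homeobox list and the 5 genes nearest in peak numbers. The gene, the lists and the rules were chosen with earlier results of these data known. Alternatives changed the overlap definition, score threshold, peak width, merging and the gap of dense stretches. The common lowest score of 7 was added after seeing the data. The 2 siRNA libraries were not analysed here.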

Additional observations from a re-analysis of the deposited data

How the results depend on the processing

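Of 35 values recomputed under alternatives, 23 stayed inside the interval of the reported value and 12 did not. This was the 95% interval except for the zinc finger homeobox count, which was held against set bounds of 2.67 to 6. Counting all peaks on the strand within the span could not change a value, since all of them bore the Zfhx4 name. The cause of these moves was not tested. The overlapped share of SRSF1 peaks was 58.8% for midpoints within 50 nt, 57.4% with every peak set to 50 nt, 54.5% in the upper 50% by score and 55.3% at a score of at least 7 in both lists; that of SRSF2 peaks was 52.6% under each of the former 2, which are wider definitions. The SRSF1 share of peaks fell to 38.2% at the common score of 7, which removes SRSF1 peaks alone. Dense stretches held 66.0% of the peaks with a gap of 200 nt, and 59.5% in the upper 50%, where 3 stretches were left of 8; with a gap of 1000 nt there were 5. The last of the 10 parts had 15.2% of SRSF1 peaks in the upper 50%. The median distance was 59.5 nt from SRSF1 peaks after merging and 90 nt from SRSF2 peaks in the upper 50%, which leaves fewer SRSF1 partners. No paired analysis was possible because each protein has 1 library. Unknown depth limits what the absence of a peak can show.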

Other observations

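The opposite strand carried a few peaks near the 5′ end of Zfhx4. They were named for the UCSC transcript uc008onz.1, on the minus strand, with 2 SRSF1 peaks (both with a score of 5, starting at 5219336 and 5220669) and 2 SRSF2 peaks (scores 6 and 4, starting at 5219280 and 5220678) inside the span of the Zfhx4 peaks. The pair that starts at 5220669 and 5220678 overlapped. No other minus-strand peak was listed within the span.

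More peak numbers were missing from Zfhx4 in the SRSF2 list than in the SRSF1 list. Up to the highest number listed, 14 numbers were missing for SRSF1 (17.1%) and 30 for SRSF2 (28.3%). Over all named transcripts 16.2% and 19.5% were missing. Of the missing numbers, 11 of 14 and 22 of 30 fell between listed peaks of a single dense stretch. Of the listed peaks, 53 of 68 for SRSF1 (77.9%) and 60 of 76 for SRSF2 (78.9%) lay in dense stretches. The missing numbers are thus not shown to gather there more than the listed peaks do. The sources used here do not say why numbers were left out.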
